A study of Canis lupus familiaris with 186 samples.

Results

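Integrins and laminins are the subunit families described here, in bulk mRNA sequencing of primary osteosarcomas of dogs. Genes were taken by name: symbols beginning with ITGA, ITGB, LAMA, LAMB or LAMC followed by a subunit number or letter, with ITGBL1, an integrin beta-like gene that is no subunit, left out. The pattern found 38 of the 37952 genes in the table, 26 integrin and 12 laminin genes. All 38 have a position in the RefSeq annotation of the canine build UU_Cfam_GSD_1.0.

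The samples are 186 tumors of the DOG2 cohort, 93 from the clinical trial COTC021 and 93 from COTC022, with 1 library a tumor. The donors were privately owned pet dogs of varied breed, age and sex with osteosarcoma of a limb, no macroscopic metastasis and no earlier treatment, and the tissue was collected before any therapy, so no group carries an agent or an engineered allele. The labels divide the tumors by trial only, and the treatment given after amputation does not bear on these samples. Total counts ran from 6587631 to 27420857, with a median of 10797162. In 50 libraries the deposited column name has an extra separator character, and these, called the deeper libraries below, had a median total of 19440449.5 against 9851681 in the other 136.

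Integrins are heterodimers of an alpha and a beta chain that cross the cell membrane and bind matrix proteins or receptors on other cells. Leukocytes use the beta chains encoded by ITGB2 and ITGB7 to adhere and migrate, whereas most other cells use ITGB1 and the alpha V family to bind collagen, laminin and fibronectin. Laminins are secreted trimers of an alpha, a beta and a gamma chain that polymerise into basement membranes, such as those of blood vessels and muscle, and osteoclasts attach to bone through the integrin of ITGAV and ITGB3.

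One library stood apart. In COTC022 tumor 64, COL1A1, the main collagen of bone, was at 8.43 log2 CPM (a count scaled to its library's total), the lowest of the 186 libraries, against a median of 14.30. Its level of ALPL, an osteoblast phosphatase, was -0.17 against a median of 9.39, also the lowest. PTPRC, the pan-leukocyte marker CD45, was at 10.70 and CD3E of the T cell receptor complex at 9.85, the highest of all and against medians of 5.96 and 1.63. This tumor also held the highest ITGAL, ITGB2 and ITGB7 of the series, so coefficients on GS-1 are also given without it where that changed a call or moved a called value by over 1.5 times.

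Of the 38 genes, 35 had enough counts to be tested among 13422 genes in all. ITGAD, the alpha D chain of leukocytes, had no count in 66 libraries and reached 6.22 CPM. LAMB4, a laminin beta chain, had none in 120 libraries, and its highest value was 2.30 CPM. ITGB6, a beta chain of epithelial cells, was at 0 in 85 libraries, with a median of 0.0924 CPM, but passed 10 CPM in 20 tumors and 50 CPM in 10, and reached 890.0 CPM in COTC021 tumor 77. These genes did not pass the filter on low counts and entered only the fits made without that filter.

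The subunits varied widely between tumors. The median SD of the 35 genes was 1.11 on the log2 scale, against 0.62 over the 13422 genes tested. ITGB1, the common beta chain, varied least, with an SD of 0.50, from 363 to 4920.4 CPM around a median of 993. LAMA2, the alpha chain of the muscle basement membrane, varied most, with an SD of 2.43 and a range from 0.0603 to 414 CPM around a median of 14.6. LAMA3, ITGA8 and LAMB3 followed with SDs of 1.94, 1.85 and 1.75. Counts are not divided by transcript length, so levels are compared between tumors and not between genes.

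**Figure D1:**
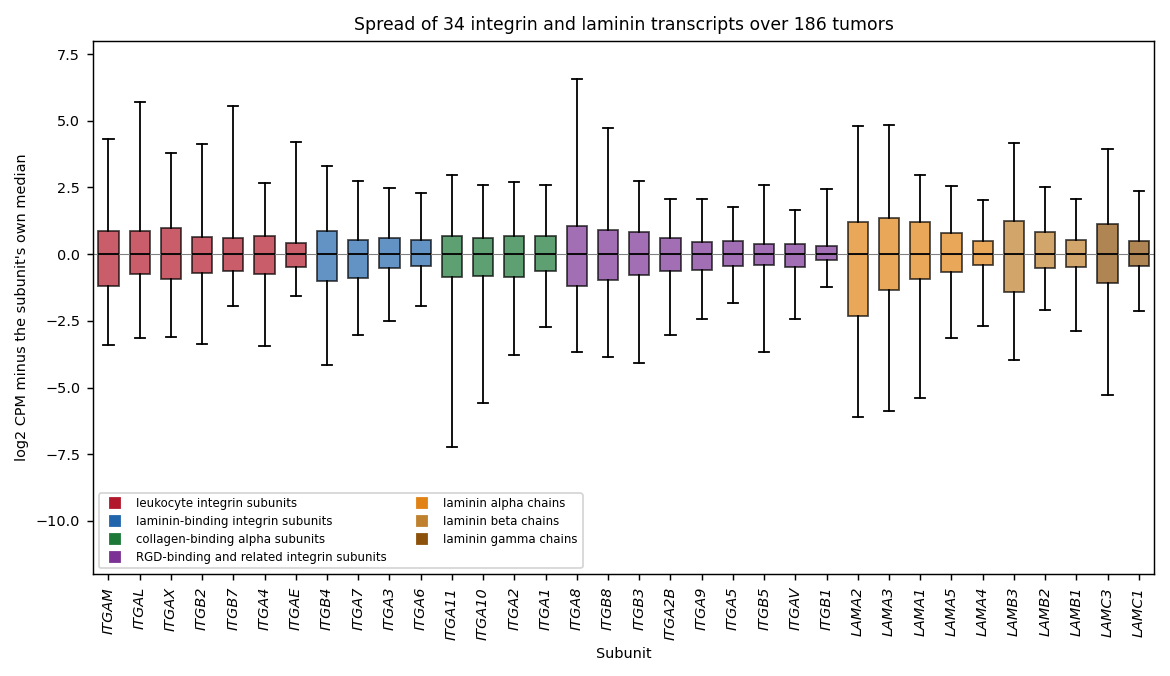
Spread of 34 of the tested subunits over 186 tumors, as log2 CPM minus that gene's own median, with boxes for the quartiles and whiskers to the lowest and highest tumor. LAMA2, with an SD of 2.43, has the widest box and ITGB1, with 0.50, is the least variable, while ITGAL, ITGB7 and ITGAE have long upper whiskers.

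The first question was which subunits follow GS-1, a gene signature from earlier work on canine osteosarcoma that the study used to divide dogs by prognosis. Here GS-1 entered as a continuous score, the mean z-score of 26 tested genes of the signature without ITGAL, which belongs to it, in units of its SD over the tumors. Leukocyte subunits were higher with a higher score, as were all 4 laminin-binding integrin subunits, whereas the collagen-binding ITGA10 and ITGA11 were lower. With limma, 14 of the 35 members were higher and 5 lower at an adjusted p under 0.05, together 54.3%, against 48.7% of all genes tested, so the share of members called lies near the background. The median coefficient was 0.09 for the members and -0.02 for all genes, as a log2 difference per SD of the score. In bulk tissue, fewer cells of a type and less RNA per cell cannot be told apart.

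Of the 7 leukocyte subunits tested, 6 were higher. ITGAL, the alpha chain of LFA-1 on lymphocytes, lies on chromosome 6 from 17765852 to 17806699. It ran from 0.260 to 203 CPM with a median of 3.92 and was higher by 1.24 ± 0.0394 (SE) log2 units per SD (adjusted p = 4.12e-74). Its partner chain ITGB2, on chromosome 31 from 38463168 to 38490402, ran from 1.93 to 369.8 CPM with a median of 22.3 and was higher by 1.04 ± 0.0389 (adjusted p = 1.70e-63). For both genes the level rose along the score in each trial, and tumor 64 lay at the top.

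The other leukocyte chains followed with smaller coefficients. ITGB7, a beta chain of gut-homing lymphocytes, had a median of 5.40 CPM, between 1.19 and 241, and a coefficient of 0.86 ± 0.0560 (adjusted p = 3.22e-33). ITGAM, the alpha chain of the complement receptor on myeloid cells, ran from 0.807 to 257 CPM around a median of 12.5 and was higher by 0.85 ± 0.0839 (adjusted p = 5.28e-18). ITGAX, the alpha chain CD11c of macrophages and dendritic cells, was between 3.45 and 449.7 CPM with a median of 35.6 and was higher by 0.64 ± 0.0854 (adjusted p = 4.25e-11).

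ITGA4, an alpha chain that binds VCAM1, had a coefficient of 0.20 ± 0.0730 (adjusted p = 0.0160), but 0.16 without tumor 64 (adjusted p = 0.0709). ITGAE, the alpha chain of lymphocytes within epithelia, had a coefficient of 0.09 with a 95% interval from -0.02 to 0.19 (adjusted p = 0.174). A gene on the same stretch of chromosome 9, HASPIN, overlaps ITGAE, and reads of the pair may be divided wrongly.

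The 4 laminin-binding integrin subunits all passed the test with small coefficients. ITGB4, the beta chain of hemidesmosomes, was higher by 0.36 ± 0.0952 per SD (adjusted p = 0.000931), with a range of 1.18 to 248 CPM and a median of 25.5. Its partner ITGA6 had a coefficient of 0.22 ± 0.0504 (adjusted p = 0.000110) and a median of 67.4 CPM. ITGA3, another laminin receptor chain, had 0.26 ± 0.0628 (adjusted p = 0.000215), and ITGA7, the laminin receptor chain of muscle, 0.18 ± 0.0760 (adjusted p = 0.0432). ITGA7 rose to 0.30 without tumor 64, where it was lowest of all libraries.

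The collagen receptor alpha chains did not move in 1 direction. ITGA10, which binds collagen in cartilage and bone, was lower by the largest coefficient among members that were lower, -0.60 ± 0.0833 (adjusted p = 2.73e-10), and lay between 2.56 and 978 CPM with a median of 151. ITGA11, the collagen receptor chain of mesenchymal cells, ran from 1.14 to 1592 CPM around a median of 203 and had a coefficient of -0.42 ± 0.0973 (adjusted p = 0.000154). The value of ITGA11 rested in part on tumor 64, where ITGA11 was lowest, and was -0.25 without it (adjusted p = 0.0312). ITGA1, the collagen receptor chain of vascular and smooth muscle cells, was higher by 0.24 ± 0.0662 (adjusted p = 0.00124), and ITGA2 had a coefficient of -0.01 with an interval from -0.18 to 0.17. PELO overlaps ITGA1, so its reads may be shared. Other protein-coding genes overlap ITGA4, ITGA7, LAMA2, LAMB2 and LAMB3 in the annotation, with the same limit.

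Of 9 tested subunits of the integrins that bind the RGD motif or related ligands, 2 were higher and 1 lower. ITGA8, an alpha chain of mesenchymal and smooth muscle cells, had 0.30 ± 0.129 (adjusted p = 0.0407), with values from 0.733 to 943 CPM. ITGA9, which binds tenascin and VCAM1, had 0.20 ± 0.0553 (adjusted p = 0.00165). ITGB5, a partner of ITGAV, had -0.18 ± 0.050 (adjusted p = 0.00169), which fell to -0.08 without tumor 64 (adjusted p = 0.165), the library where ITGB5 was lowest.

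The osteoclast and fibronectin receptor chains were not called over all tumors. The coefficients were -0.01 for ITGAV, with an interval from -0.11 to 0.09, -0.05 for ITGB3, from -0.22 to 0.12, and 0.09 for ITGA5, from -0.01 to 0.19. Without tumor 64, ITGA5 was at 0.13 and passed the test (adjusted p = 0.0478). ITGB1 was at -0.03, from -0.11 to 0.04. ITGB8, an activator of latent TGF-beta with ITGAV, was at 0.21 (adjusted p = 0.0751) and at 0.33 without tumor 64 (adjusted p = 0.00680), but at -0.05 over all tumors with both DESeq2 and edgeR.

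Of the laminin chains, LAMA1, an alpha chain of embryonic basement membranes, was lower with a coefficient of -0.50 ± 0.129 (adjusted p = 0.000640), and ran from 0 to 55.6 CPM. LAMC3, a gamma chain of less common trimers, was lower with -0.39 ± 0.124 (adjusted p = 0.00590) and ran from 1.01 to 659.9 CPM. It was at -0.28 without the 2 libraries farthest in score (adjusted p = 0.0737). The chains of the vascular laminins were not called, with coefficients of 0.07 for LAMA4, 0.08 for LAMA5, -0.11 for LAMB1, -0.14 for LAMB2 and -0.04 for LAMC1. LAMA2 had the widest interval, from -0.01 to 0.66 around 0.32, and passed the test without tumor 64, at 0.43 (adjusted p = 0.0419). Without the 2 libraries farthest in score LAMA2 was at 0.41 and did not pass (adjusted p = 0.0726).

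**Figure D2:**
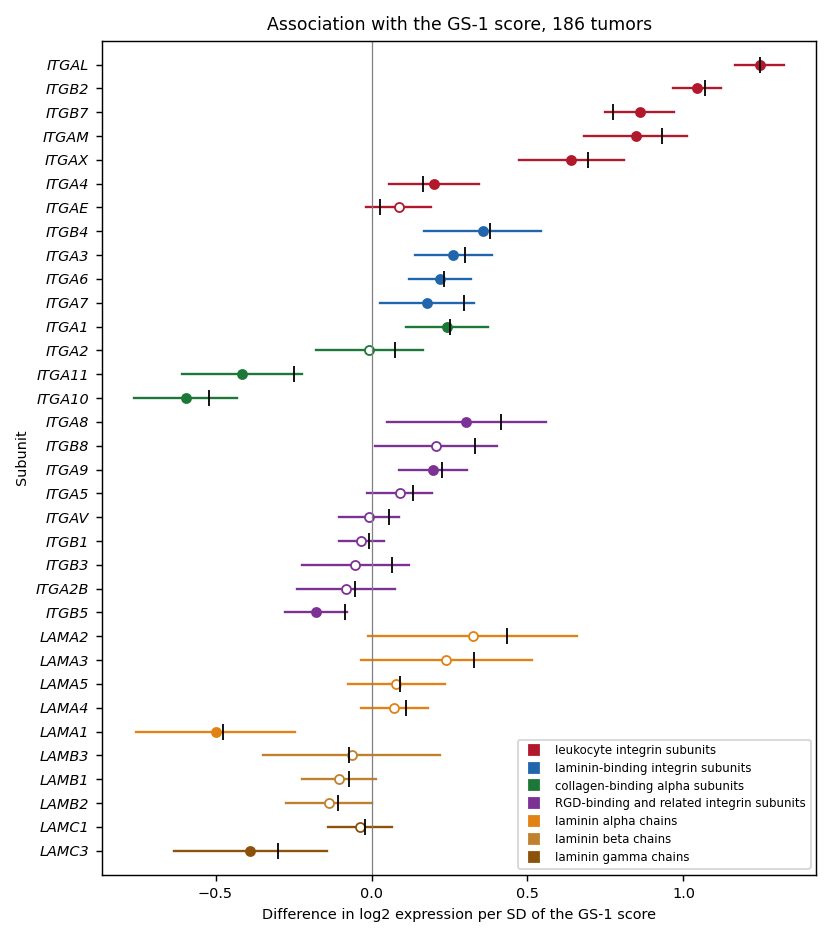
Coefficient of 34 of the tested subunits on the GS-1 score (x axis, log2 difference per SD of the score) with its 95% interval, over 186 tumors. Filled circles have an adjusted p under 0.05, black ticks give the value without COTC022 tumor 64, and colours mark the class. ITGAL at 1.24 and ITGB2 at 1.04 lie farthest to the right and ITGA10 at -0.60 farthest to the left.

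Coefficients were also computed within trials and library groups. ITGAL had 1.22 and 1.26 in COTC021 and COTC022, and 1.26 among the deeper libraries against 1.22 among the rest. ITGA10 had -0.54 and -0.65 in the trials, and -0.68 and -0.56 in the library groups. LAMA1 had -0.16 in the deeper against -0.81 in the other libraries, and ITGA11 had -0.70 against -0.21. In limma no member passed the test of that difference (0.0149% of all genes called). An unadjusted p under 0.05 was found for 5 of 35 members and for 963 of all 13422 genes. The coefficients differed between the trials for 0 of 35 members in limma (0% of all genes called). At an unadjusted p under 0.05 were 0 members and 369 of all 13422 genes. Without tumor 64 the count of calls was 0, and 6 members and 538 of all genes had an unadjusted p under 0.05. This interaction was run with limma alone.

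Leukocyte markers moved with the same score. All 8 macrophage and all 5 tested T cell markers were higher with GS-1, with median coefficients of 1.05 and 1.36, and the score had r = 0.85 with the macrophage score and 0.85 with the T cell score over the 186 tumors. Of the osteoblast markers 4 of 7 were lower, of the cartilage markers 5 of 6 and of the proliferation genes 6 of 6. Of the endothelial markers, 5 of 8 were higher. Over all 13422 genes tested, 48.7% were called in either direction. The part of these cells in the coefficients of the subunits was not tested. The score was barely related to depth, with r = -0.07 to log2 total counts.

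The proteins around the integrins moved in both directions. Of 29 genes for integrin activators and adaptors, 14 were higher with GS-1, led by PARVG, a parvin of blood cells, with 0.95, FERMT3, the kindlin of blood cells, with 0.74, and PTK2B, a focal adhesion kinase relative, with 0.64. The 7 that were lower were led by the kindlins of other tissues, FERMT1 with -0.40 and FERMT2 with -0.31, and by the tetraspanin CD9 with -0.13. Of 19 tested genes for ligands and basement membrane partners, 7 were higher, led by the ligands of leukocyte integrins ICAM3, VCAM1 and ICAM1 with 0.89, 0.71 and 0.49. The 3 that were lower were TNC, NPNT and AGRN, matrix proteins, with -0.38, -0.36 and -0.30. Over all 13422 genes tested, 3011 were higher and 3527 lower, 48.7% called in either direction, so calls are common in the background. The medians of the lists were 0.07 and 0.13, against -0.02 for all genes.

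Trials did not differ in any member by limma's test. The count of calls was 0 of 35 (0.0149% of all genes called). In limma 3 members had an unadjusted p under 0.05, and the count over all genes at that threshold is not given here. The quasi-likelihood test of edgeR called 0 members and DESeq2 called 1. That member was LAMA2, with a median of 17.7 CPM in COTC021 and 9.90 in COTC022 and a limma difference of -0.91 ± 0.366 log2 units for COTC022 minus COTC021 (adjusted p = 0.368). The ranges of the trials overlapped. The other members at an unadjusted p under 0.05 were LAMA4 with -0.23 and LAMC1 with -0.20. Between the deeper and the other libraries, limma called 0 members, against 4.27% of all genes. At an unadjusted p under 0.05 were 3 of 35 members and 2471 of 13422 genes.

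The next question was which subunits follow the markers of which cells. Scores were made for 9 cell types or programs from 5 to 8 tested marker genes each, none of them a member, and correlated with the 35 subunits in 315 pairs. A limma fit of each score over all genes called 165 of the pairs at an adjusted p under 0.05. By score, the members called were 22 for macrophages (50.1% of all genes called), 16 for T cells (32.9%), 19 for osteoclasts (32.4%), 20 for endothelium (39.5%), 23 for pericytes and smooth muscle (36.9%), 25 for osteoblasts (37.5%), 13 for cartilage (32.1%), 4 for skeletal muscle (11.6%) and 23 for proliferation (53.7%). The endothelial score had r of at least 0.3 with 12 members, 34.3%, against 7.34% of all genes, and so did the pericyte and smooth muscle score, against 6.96%. For the cartilage score the same count was 1 member, 2.86%, against 3.90% of all genes.

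The vitronectin receptor of osteoclasts followed the osteoclast markers. ITGB3, its beta chain, lay between 4.05 and 475 CPM with a median of 73.3, and had r = 0.83 and rho = 0.90 with the osteoclast score (permutation p = 1e-05 for both, the smallest 100000 resamples can give, adjusted p = 2.86e-45 by limma). Within the trials r was 0.85 and 0.82, within the library groups 0.83 and 0.83, and without the 2 tumors farthest from the median score 0.83. The tumors formed 1 cloud from low to high, with tumor 64 below the others at its score.

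ITGAV, the alpha chain of that receptor, had r = 0.53 and rho = 0.56 with the osteoclast score (permutation p = 1e-05 for both, adjusted p = 4.16e-13 by limma), and 0.43 to 0.56 within trials and library groups. ITGA2, a collagen receptor chain, followed the score nearly as closely as ITGB3, with r = 0.74 and rho = 0.79 (permutation p = 1e-05 for both, adjusted p = 2.11e-33) and 0.72 to 0.79 within trials and library groups. ITGAX had r = 0.64 and ITGA7 0.52, each with a permutation p of 1e-05.

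Of the laminin-binding integrin subunits, ITGB4, ITGA6 and ITGA3 had r over 0.5 with the endothelial score. ITGB4 had r = 0.79 and rho = 0.79 with the endothelial score (permutation p = 1e-05 for both, adjusted p = 1.39e-37 by limma), with 0.82 and 0.76 in the trials, 0.81 and 0.79 in the library groups, and 0.78 without the 2 farthest tumors. ITGA6 followed with r = 0.67 and ITGA3 with 0.59. The collagen receptor chain ITGA1 had r = 0.58 with the endothelial and 0.58 with the pericyte and smooth muscle score, which themselves had r = 0.65. Among the laminin chains, LAMA5 had 0.56 and 0.55 with these scores, LAMA4 0.48 and 0.44, and LAMC1 0.43 and 0.52. The score of pericytes and smooth muscle also had r = 0.50 with ITGA8, at 0.72 among the deeper and 0.41 among the remaining libraries.

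ITGA10 followed the osteoblast markers, with r = 0.65 and rho = 0.52 (permutation p = 1e-05 for both, adjusted p = 1.86e-19 by limma). Within the trials r was 0.64 and 0.66, within the library groups 0.64 and 0.65, and without the 2 farthest tumors 0.59. LAMA2 went the other way, with r = -0.41 and rho = -0.39 (permutation p = 1e-05 for both). The trials gave LAMA2 a correlation of -0.46 and -0.33. With the osteoblast score, 7 of the 35 members had r of -0.3 or below, 20.0%, against 6.79% of all genes. At 0.3 or above were 6 members, 17.1%, against 7.66%. ITGA11 had r = 0.24 with the osteoblast and 0.30 with the cartilage score, and LAMB1, a beta chain of vascular laminins, had 0.40 with the cartilage score.

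Leukocyte subunits followed the markers of macrophages and T cells to different degrees, without a test of the differences. ITGB2 had r = 0.87 with the macrophage and 0.75 with the T cell score, ITGAM 0.73 and 0.44, and ITGAX 0.59 and 0.34. ITGAL had 0.76 and 0.82, and ITGB7 0.40 and 0.73. The macrophage and T cell scores had r = 0.62 with each other. ITGA4 and ITGAE had 0.31 and 0.21 with the T cell score and 0.15 and -0.11 with the macrophage score. COTC022 tumor 64 had the highest T cell score, at 4.61 SD, and both genes ranked 185 of 186 from the lowest there. The r of subunits with these scores without that tumor are not given here.

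Several scores move together, so a fit with all 9 scores and the trial was added after the data had been seen. With the other scores held, members were called for endothelium in 13 cases (7.61% of all genes called), for T cells in 13 (12.0%), for macrophages in 9 (11.4%), for osteoclasts in 8 (14.4%), for pericytes and smooth muscle in 10 (8.11%), for osteoblasts in 20 (25.3%), for cartilage in 7 (15.5%), for skeletal muscle in 5 (5.42%) and for proliferation in 10 (36.9%). ITGAM had a coefficient of 1.40 ± 0.130 per SD of the macrophage score (adjusted p = 3.97e-19), and ITGB7 one of 0.92 ± 0.0757 per SD of the T cell score (adjusted p = 6.40e-23). ITGB2 held both, with 0.79 for macrophages and 0.38 for T cells, and so did ITGAL with 0.64 and 0.77.

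In the same fit ITGB3 was higher by 1.00 ± 0.0685 per SD of the osteoclast score (adjusted p = 3.88e-30) and ITGA2 by 0.91 ± 0.0760 (adjusted p = 1.40e-22). ITGAX had 0.64 with osteoclasts. ITGB4 was higher by 1.00 ± 0.0902 per SD of the endothelial score (adjusted p = 5.54e-20), and ITGA8 by 0.93 ± 0.156 per SD of the pericyte and smooth muscle score (adjusted p = 4.60e-06). With the osteoblast score, ITGA10 had 0.68 ± 0.0842 (adjusted p = 1.29e-11), LAMC3 0.60 ± 0.130 and LAMA2 -0.89 ± 0.178 (adjusted p = 2.90e-05). LAMA1, LAMB3 and LAMA3 were also higher with osteoblast markers, with 0.41, 0.66 and 0.44. In this fit 8 members were higher and 12 lower with the osteoblast score, with a median coefficient of -0.11 against 0.0018 for all genes.

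**Figure D3:**
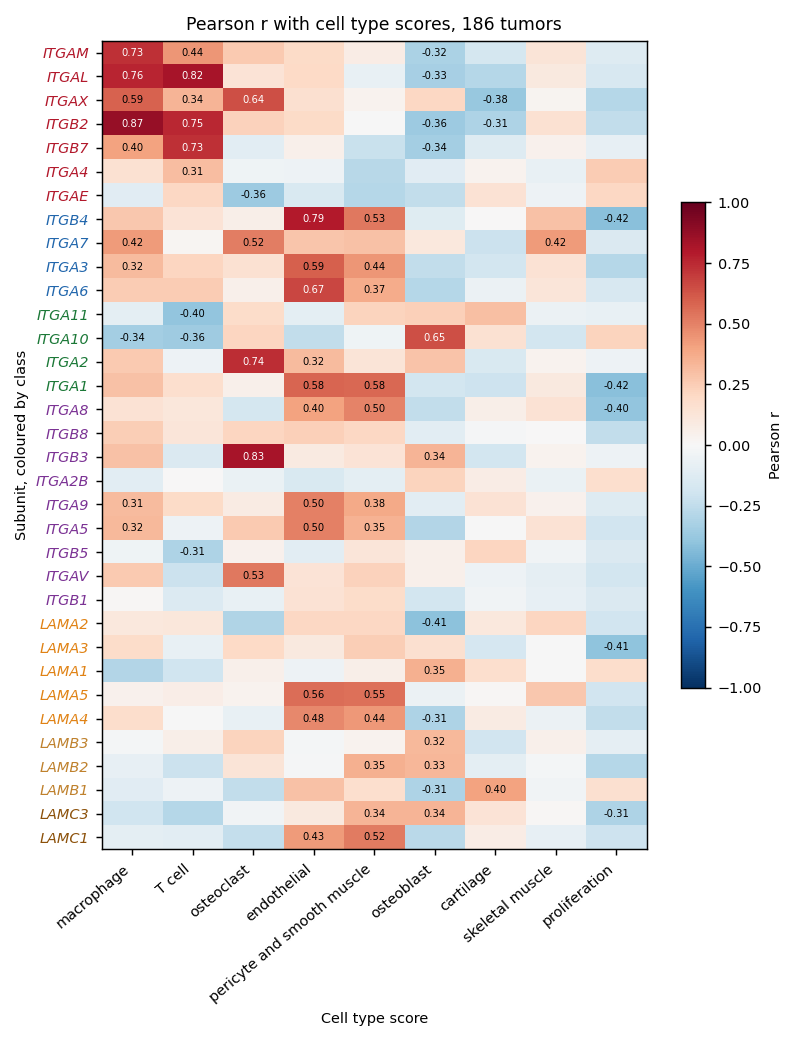
Pearson r of 34 of the tested subunits (y axis, coloured by class) with 9 cell type scores (x axis) over 186 tumors, with values printed where they reach 0.3 in size. The strongest blocks are ITGB2 with macrophages at 0.87, ITGB3 with osteoclasts at 0.83, ITGAL with T cells at 0.82 and ITGB4 with endothelium at 0.79.

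**Figure D4:**
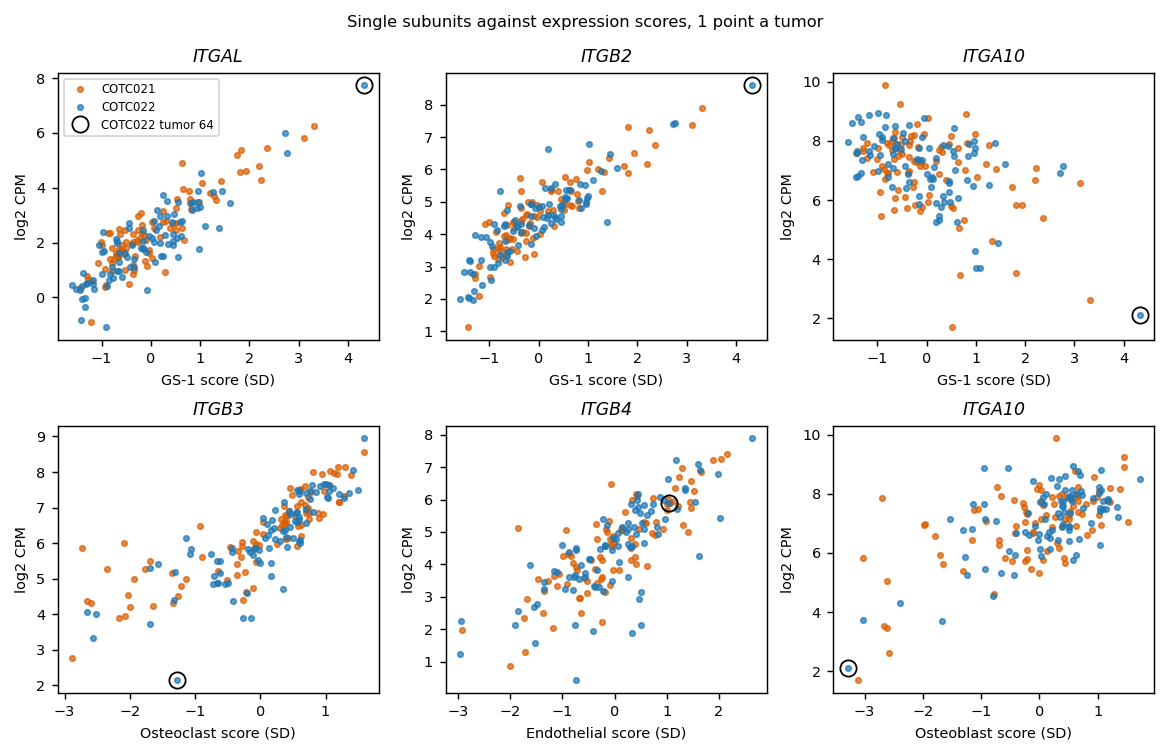
Log2 CPM of 5 subunits (y axes) against the GS-1, osteoclast, endothelial and osteoblast scores (x axes, in SD), with 1 point a tumor coloured by trial and COTC022 tumor 64 ringed. The points of the trials overlap, and ITGB3 with r = 0.83 and ITGB4 with r = 0.79 rise along their scores, while ITGA10 falls along GS-1 and rises along the osteoblast score.

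The last question was whether chains that pair in a protein vary together across tumors. Of 35 pairs of tested chains known to form an integrin dimer or to share a laminin trimer, 22 had an adjusted p under 0.05 in a limma fit of 1 chain on the other over all genes. In these fits the share of all genes called was 8.4% with ITGB1, 46.7% with ITGB2, 27.4% with ITGB3, 42.3% with ITGB4, 15.3% with ITGB5, 26.2% with ITGB7 and 28.3% with ITGB8. It was 30.2% with LAMB1, 33.1% with LAMB2, 9.86% with LAMB3 and 39.0% with LAMC1, and the 22 called pairs are 62.9% of the 35. The median r of the 35 pairs was 0.24, against 0.08 over 526 other pairs of members. Of the 35, 14 had r of at least 0.3, and of the 526, 84. The 526 are the pairs not on the list, and some of them can also share a laminin trimer. Examples are LAMA3 with LAMB2 at 0.53, LAMA3 with LAMC1 at 0.29 and LAMA1 with LAMC1 at 0.12.

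Among integrin dimers, ITGAL and ITGB2 of LFA-1 had r = 0.83 and rho = 0.79 (permutation p = 1e-05 for both), with 0.85 and 0.82 in the trials and 0.93 and 0.80 in the library groups. It ranked 42 among the 13421 other genes by r with ITGB2. ITGAM and ITGB2 followed with r = 0.69 and ITGAX and ITGB2 with 0.55, where ITGAM ranked 244 and ITGAX 536. The vitronectin receptor pair ITGAV and ITGB3 had r = 0.64, with 0.59 and 0.69 in the trials, and ITGAV ranked 123 by r with ITGB3. The hemidesmosome pair ITGA6 and ITGB4 had 0.55, with 0.60 and 0.51, and ITGA6 ranked 178 by r with ITGB4.

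The partners of ITGB1, the beta chain shared by many integrins, had r of at most 0.36 with it. The highest were 0.36 for ITGAV, 0.31 for ITGA5 and 0.30 for ITGA1. Values were 0.02 for ITGA10, -0.01 for ITGA4 and -0.07 for ITGA7, none with an adjusted p under 0.05. The platelet pair ITGA2B and ITGB3 had -0.07 (adjusted p = 0.660), while ITGA2 and ITGB3, which are not known as a dimer, had 0.75. ITGA2B was low, with a median of 1.14 CPM and at least 10 counts in 121 of 186 libraries, so its r is less precise.

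Among laminin trimers, LAMA4 and LAMC1 had r = 0.68 and rho = 0.70 (permutation p = 1e-05 for both), with 0.71 and 0.64 in the trials. By r with LAMC1, LAMA4 ranked 2 among the 13421 other genes. LAMA4 and LAMB1 had 0.48, LAMB1 and LAMC1 0.33, and LAMA5 and LAMC1 0.31. In these pairs LAMA4 ranked 58 by r with LAMB1, and LAMB1 and LAMA5 ranked 680 and 800 by r with LAMC1. LAMA3 and LAMB3, chains of an epithelial laminin that anchors the epidermis, had 0.13, and this pair did not have an adjusted p under 0.05. LAMB3 was low, with a median of 2.23 CPM and at least 10 counts in 133 of 186 libraries, so this r is less precise.

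**Figure D5:**
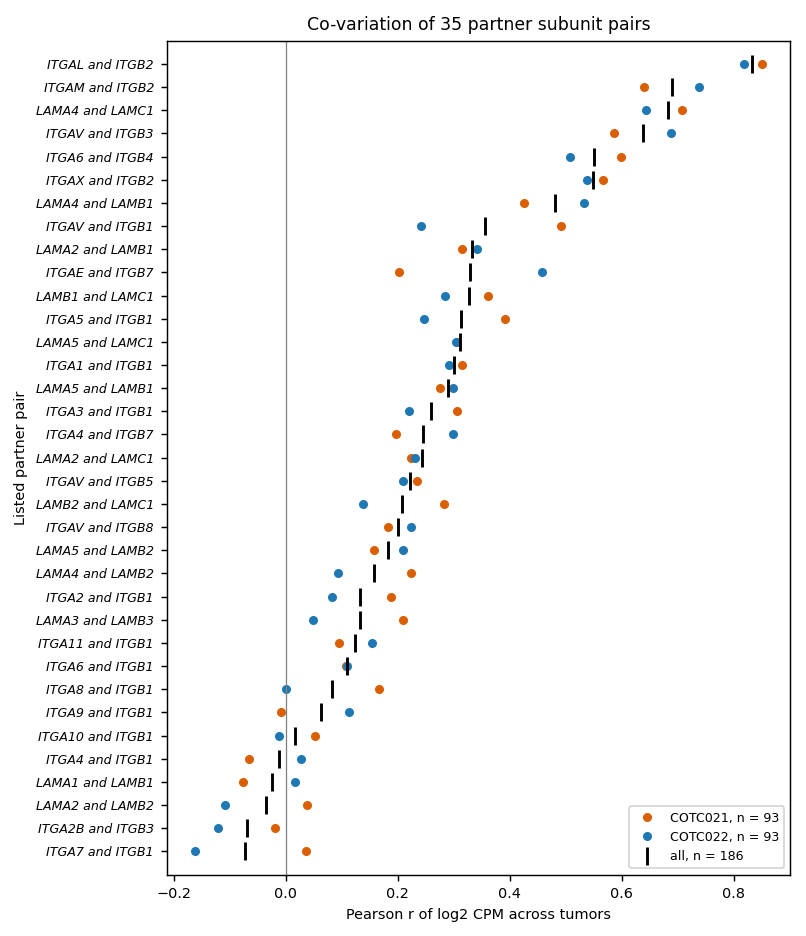
Pearson r of log2 CPM across tumors (x axis) for the 35 listed partner pairs (y axis), with black ticks for all 186 tumors and points for the 93 of each trial. ITGAL and ITGB2 at 0.83 stand at the top and the pairs of ITGB1 with ITGA10, ITGA4 and ITGA7 lie around 0.

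Some members are neighbours on a chromosome. ITGAX and ITGAM lie 16101 bases apart on chromosome 6 and had r = 0.38, and ITGA2 and ITGA1 lie 18867 bases apart on chromosome 4 with r = 0.24. ITGAM and ITGAL, 607813 bases apart on chromosome 6, had r = 0.61, higher than either of the closest pairs.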

How the data were processed

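Primary tumors of 186 dogs were sequenced with a stranded mRNA kit. Per the labels and the study's methods, the authors trimmed reads with cutadapt, aligned them with STAR 2.7.0f to the canine build UU_Cfam_GSD_1.0 and deposited expected counts per gene from RSEM 1.3.1, which are not normalized and divide shared reads between genes. Values were rounded to whole counts (3.07% were not whole). Of 198 columns, 12 were not used because no sample label matched them. No 2 libraries held identical counts, and the highest r between libraries was 0.974. Whether samples of a trial share a site or extraction is not given in the sources used here.

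Genes were kept with filterByExpr (minimum count 10, minimum proportion 0.5, large n 5), TMM-normalized and fitted with voom in limma 3.58.1 (R 4.3.3), with Benjamini-Hochberg adjustment over all 13422 genes and a threshold of 0.05. edgeR 4.0.16, DESeq2 1.42.0, RLE factors, no filter, other covariates, subsets and other scores were alternatives. The GS-1 score used quantile-normalized log2(CPM + 2), with trial as a covariate. CPM in the text are counts per library total, and log2 CPM use TMM and a prior of 2 counts. Correlations have two-sided permutation p-values from 100000 resamples (Python 3.11.15, numpy 2.4.6), and adjusted p-values come from limma over all genes in place of an adjustment over the pairs alone. Fits were tested on simulated data. Total counts of 6587631 to 27420857 a library limit the precision for genes with low counts.

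Members, gene lists and tests were chosen with earlier results of these data known. Named are all tested members except 1, whose own results are not reported here, counts of each list, and the 3 pathway genes with the largest coefficient each way. The epithelial, platelet and Schwann lists had under 3 tested genes and gave no score. Clusters, disease-free interval and survival are not given by the sample labels and were not used here. The p-values measure the spread between tumors of different dogs.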

Additional observations from a re-analysis of the deposited data

How the results depend on the processing

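No paired analysis was possible because the labels give no replicate numbers shared by the trials. The trial comparison gave 0 higher members under each alternative and 0 lower ones except in DESeq2, with 1 lower. Against 14 higher and 5 lower members with GS-1 (48.7% of all genes called), the counts were 8 and 2 within COTC021 (26.3%). They were 11 and 4 within COTC022 (34.8%). Within the 50 deeper libraries they were 8 and 2 (24.3%), and within the other 136, 10 and 3 (34.5%). Without the 2 libraries farthest in score they were 16 and 3 (42.1%). Without COTC022 tumor 64, chosen after seeing the data, 16 were higher and 4 lower (43.8% of all genes called). Of the score pairs, 101 were called within COTC022 and 72 within the deeper libraries, against 165. Of the partner pairs, 12 and 9 were called, against 22. With ITGB2, for example, the share of all genes called was 30.9% and 24.2% there, against 46.7%. These subsets hold fewer tumors. By score, 2 members were called for cartilage in the other 136 libraries, against 13, and 8 for macrophages in the deeper libraries, against 22. Within COTC022, 6 were called for proliferation, against 23, and within COTC021, 0 for skeletal muscle, against 4. The shares of all genes called with the scores in these subsets are not given here.

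Signs turned for values with no call in all tumors, among them ITGB8 at 0.21, and the cause was not tested. With DESeq2, coefficients on GS-1 were -0.012 for LAMA5, -0.052 for ITGB8 and 0.013 for LAMC1, and with edgeR -0.012, -0.049 and 0.012. With a score without quantile normalization they were 0.0053 for ITGB3, 0.013 for ITGAV and 0.042 for ITGA2. Within COTC021, ITGAE was at -0.014 and LAMA4 at -0.037, and within COTC022, LAMB3 at 0.0097 and ITGA2 at 0.023. In the deeper libraries LAMC1 was at 0.070 and LAMB3 at 0.13. In the other 136, ITGAE was at -0.0034, LAMA5 at -0.028, ITGA2 at 0.025, ITGB3 at 0.062 and ITGAV at 0.064. Without the 2 farthest libraries ITGB1 was at 0.0032, ITGAV at 0.078, ITGB3 at 0.11 and ITGA2 at 0.12, and without tumor 64 ITGAV was at 0.055, ITGB3 at 0.066 and ITGA2 at 0.076.

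Correlations turned likewise. Within COTC021, r was -0.0083 for ITGA9 with ITGB1, 0.036 for ITGA7 with ITGB1 and 0.038 for LAMA2 with LAMB2. Within COTC022, it was -0.013 for ITGA10 and 0.026 for ITGA4 with ITGB1, and 0.017 for LAMA1 with LAMB1. In the deeper libraries, it was 0.0016 for ITGA4 with ITGB1, 0.039 for LAMA2 with LAMB2, 0.041 for LAMA1 with LAMB1 and 0.093 for ITGA2B with ITGB3. For ITGA10 with ITGB1 it was -0.0028 in the other 136, -0.0018 without tumor 64 and -0.016 without the 2 farthest, and ITGA7 with ITGB1 gave 0.021 there. The filter on low counts leaves ITGAD, ITGB6 and LAMB4 out of the fits other than those without that filter, and at the median depth a gene at 1 CPM rests on about 10 counts.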

Other observations

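The tumor in which a subunit was highest was compared with the genes around that subunit, a question raised after the data had been seen. For each of the 35 tested members, tested genes starting within 2500000 bases on either side were set against their own medians over the 186 tumors. For 6 members, at least 50.0% of the neighbours were 1 log2 unit or more above their median in that tumor, whereas over all genes the share in the 6 tumors was between 5.77% and 12.4%. For the other 29 members the share of neighbours was between 0% and 31.2%. Each tumor was chosen because the member itself was highest there. No such count is given for other genes in their own highest tumors, so 6 of 35 cannot be read as particular to these members.

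ITGB1 was highest in COTC022 tumor 93, by 2.45 log2 units over its median, and 13 of its 17 neighbours on chromosome 2 were raised by at least 1 unit. ITGB8 was 4.73 above its median in COTC021 tumor 6, with 7 of 11 neighbours on chromosome 14 raised. ITGB5 was 2.58 above its median in COTC022 tumor 48, with 28 of 49 neighbours on chromosome 33. The same held for 46 of 91 neighbours of ITGA10 in COTC021 tumor 64, for 11 of 22 of LAMB1 in COTC021 tumor 89 and for 4 of 8 of ITGAV in COTC021 tumor 18. DNA copy number was not analysed here, and no test was made of these counts.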
